A study of Mus musculus with 7 samples.

Results

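Accessible chromatin was compared between young and aged mouse liver at 7 genes of cholesterol synthesis and its control. Hmgcs1, Idi1, Fdft1, Sqle and Lss encode enzymes of the pathway, and Srebf2 and Insig1 encode regulators of it. The genes were grouped under cholesterol synthesis and uptake, but none of the 7 encodes an uptake receptor. They were taken by name, and their regions were all consensus regions that overlapped the gene body or 10 kb on either side of it in the GENCODE M21 annotation of GRCm38. This gave 32 of 55680 regions, at 7 of the 28925 annotated genes that had a region within the same window.

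Cholesterol is built from acetyl-CoA through mevalonate, isoprenoid units, squalene and lanosterol, and the liver is a main site of both its synthesis and its removal from blood. Transcription of the pathway is driven by SREBP-2, the product of Srebf2, a transcription factor made as a precursor in the endoplasmic reticulum membrane. When sterols are plentiful, INSIG proteins hold the precursor and its escort SCAP in the endoplasmic reticulum, and when sterols are scarce the precursor moves to the Golgi, is cleaved, and its free part enters the nucleus.

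The data are ATAC-seq libraries, in which a transposase inserts sequencing adapters into exposed DNA, from liver of male C57BL/6N mice fed a standard diet without restriction. The 3 young samples came from mice aged 3 months and the 4 aged samples from mice aged 18 months, with no other treatment. Counts in regions summed to 10384725, 25461110 and 5709327 in young replicates 1 to 3 and to 11717992, 5108283, 4474652 and 8397956 in aged replicates 1 to 4. The sources differ on the aged animals. By the deposited design text the 4 aged samples trace to 3 animals, with 2 lobules of 1 animal used as separate samples, while the paper counts 4 biological replicates, and which samples would share an animal is not stated in the sources used here. The p-values therefore measure the spread between 4 aged samples that may not be 4 independent animals, and the edgeR fit was repeated with each of the 6 possible aged pairs summed. Levels are given as CPM (counts scaled to library totals of 1000000) after TMM normalization, and regions were tested with edgeR's quasi-likelihood test, calling a region at a Benjamini-Hochberg adjusted p under 0.05 over all 55680 regions.

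The log2 fold changes of aged over young liver at the 7 promoter regions were all positive, from 0.18 to 0.45 around a median of 0.37, although with offsets fitted on mean abundance those of Insig1, Srebf2 and Fdft1 fell below 0. A promoter region is the strongest region within 200 bp of an annotated start of the gene. At 5 of the 7, every aged sample lay above every young sample, which held for 24% of the promoter regions of 13037 protein-coding genes and for 10.2% of all regions. None of the 7 was called by edgeR, while 4 had an unadjusted p under 0.05, DESeq2 called 1 and limma voom called 0. Among promoter regions of protein-coding genes edgeR called 5.02% higher and 1.49% lower in aged liver, and an unadjusted p under 0.05 was found for 27.3% higher and 7.69% lower. On the same regions DESeq2 called 11.9% higher and 1.6% lower, and limma voom 9.2% and 2.17%.

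Over the whole set of 32 regions edgeR also called 0, against 2.44% of all regions called higher and 3.3% called lower. At an unadjusted p under 0.05 there were 10 regions, 6 higher and 4 lower in aged liver, beside 11.9% and 12.7% of all regions. DESeq2 called 1, beside 4.96% of all regions higher and 3.47% lower, and limma voom called 0, beside 3.95% and 4.28%. The log2 fold change was above 0 in 18 regions and below 0 in 14, with a median of 0.057, beside a median of −0.035 over all regions. The direction of this median was not stable, since it fell below 0 in 5 of 22 alternative fits. Every aged sample lay above every young sample in 7 of the 32 regions, beside 10.2% of all regions. Every aged sample lay below every young sample in 2, beside 11.6% of all regions. In bulk liver, fewer cells of a type and less accessible chromatin per cell cannot be told apart.

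Hmgcs1 encodes the cytosolic HMG-CoA synthase, which makes the substrate of the rate-limiting reductase. Its promoter region, chr13:119690003-119691392, spans the gene's start and 1390 bp. It had 81.5, 76.5 and 52.8 CPM in young replicates 1 to 3 and 99.9, 87.9, 92.9 and 105 CPM in aged replicates 1 to 4. All 4 aged samples were above the 3 young samples, and young replicate 3 was well below the other young samples. The young mean was 70.3 ± 15.3 CPM (SD, n = 3), and the aged mean 96.4 ± 7.46 CPM (SD, n = 4). This gave a log2 fold change of 0.45 (SE 0.14) with an edgeR adjusted p of 0.0726, the lowest adjusted p of the 32 regions. DESeq2 gave 0.48 with an adjusted p of 0.0384 and offsets fitted on GC content gave 0.44 with 0.0298. Offsets fitted on mean abundance gave 0.16 with 0.532, the highest adjusted p over all alternatives. Without young replicate 3 the log2 fold change was 0.30 with an edgeR adjusted p of 0.135. Its log2 fold change in the main test was above that of 93.6% of the promoter regions of protein-coding genes. This share was 90.6% for Idi1, 88.0% for Lss, 85.7% for Sqle, 67.9% for Insig1, 61.3% for Fdft1 and 57.3% for Srebf2.

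A region in an Hmgcs1 intron, chr13:119697923-119698918, had 19.1, 17.0 and 16.1 CPM in young and 21.7, 25.5, 23.3 and 21.9 CPM in aged samples. The groups did not overlap here either, and young replicate 3 was close to the other young samples. Its log2 fold change was 0.40 (SE 0.14) with an edgeR adjusted p of 0.103, the largest absolute change among the Hmgcs1 regions outside the promoter. The other 3 Hmgcs1 regions, at its 3′ end and downstream of it, had log2 fold changes from −0.28 to 0.22 and overlapping groups, and all of them overlap the neighbouring gene Nim1k.

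Idi1 encodes isopentenyl-diphosphate isomerase, which interconverts the pathway's 5-carbon units. It had a single region, chr13:8885271-8886382, which also covers a start of the noncoding gene Gm48574. The region had 54.6, 51.3 and 34.7 CPM in young and 70.5, 64.7, 59.1 and 56.8 CPM in aged samples. The lowest aged sample, replicate 4, was just above the highest young sample, and young replicate 3 was again the lowest of all. For Idi1 the log2 fold change was 0.41 (SE 0.15) with an edgeR adjusted p of 0.107. It was 0.49 with an adjusted p of 0.0412 with offsets fitted on GC content, and 0.19 with offsets fitted on mean abundance. Over all alternatives the adjusted p lay between 0.0398 and 0.567. Without young replicate 3 the log2 fold change was 0.26.

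Fdft1 encodes squalene synthase, the enzyme that commits farnesyl units to sterols, and the gene had 2 regions over annotated starts. The stronger in CPM, chr14:63164204-63166391, lies inside the gene over the start of 1 of its 4 transcripts, and it is the Fdft1 promoter region under the definition above. It had 57.8, 46.9 and 57.1 CPM in young and 59.2, 61.8, 58.6 and 67.8 CPM in aged samples. The groups were separate by less than 1 CPM, between young replicate 1 and aged replicate 3, and here young replicate 2 was the lowest sample. At this internal start the log2 fold change was 0.20 (SE 0.12) with an edgeR adjusted p of 0.293, offsets fitted on mean abundance gave −0.037, and without young replicate 2 it was 0.11.

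The region over the main Fdft1 start, chr14:63177587-63178556, covers the starts of 2 of the 4 transcripts and was singled out after its values were seen. It had 54.7, 49.6 and 28.6 CPM in young and 61.8, 55.7, 57.9 and 67.8 CPM in aged samples. Every aged sample was above every young sample, aged replicate 2 by a small margin, and young replicate 3 was far below the rest. Here the log2 fold change was 0.44 (SE 0.17) with an edgeR adjusted p of 0.135, and 0.24 without young replicate 3. Per kb this region, 970 bp wide against 2188 bp for the internal one, had more CPM than the internal region in all 7 samples. The largest absolute change at Fdft1 was at a weak region downstream of it, chr14:63143700-63144547, which overlaps the neighbouring gene Ctsb. There the log2 fold change was −0.69 (SE 0.30) with an edgeR adjusted p of 0.169. This downstream region had 10.4, 5.37 and 6.41 CPM in young and 3.87, 5.30, 6.30 and 3.31 CPM in aged samples, and only aged replicate 3 reached into the young range.

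Sqle encodes squalene epoxidase, which adds the oxygen that later becomes the sterol hydroxyl group. Its promoter region, chr15:59314472-59315939, had 75.9, 76.3 and 56.9 CPM in young and 96.3, 87.1, 77.0 and 99.5 CPM in aged samples. Aged replicate 3 was within 1 CPM of the highest young sample, and the other aged samples stood clear of the young ones. The log2 fold change was 0.37 (SE 0.13) with an edgeR adjusted p of 0.108, 0.26 without young replicate 3, and 0.082 with offsets fitted on mean abundance. An upstream region that covers a start of the neighbouring gene Zfp572, chr15:59306763-59307232, had the largest other change at Sqle, with a log2 fold change of −0.56 and an edgeR adjusted p of 0.231. Its level was low, 4.44 CPM in young and 3.05 CPM in aged liver on average, and the groups overlapped.

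Lss encodes lanosterol synthase, which closes the sterol rings. Its promoter region, chr10:76530860-76532087, had 63.6, 51.4 and 29.9 CPM in young and 68.6, 57.1, 59.8 and 69.0 CPM in aged samples. Young replicate 1 lay above 2 of the aged samples, so the groups overlapped, and young replicate 3 had less than any other sample. For Lss the log2 fold change was 0.39 (SE 0.19) with an edgeR adjusted p of 0.222. It was 0.17 without young replicate 3, 0.63 without young replicate 1, and 0.16 with offsets fitted on mean abundance. A weak region downstream of the gene, chr10:76563628-76564032, had a log2 fold change of −0.68 at 3.49 CPM in young and 2.22 CPM in aged liver, with an edgeR adjusted p of 0.273.

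Srebf2, the gene of SREBP-2, had the most regions and, in the main test, the smallest change of the 7 promoter regions. Its promoter region, chr15:82146629-82148514, had 65.6, 53.7 and 46.9 CPM in young and 67.6, 53.9, 60.9 and 68.3 CPM in aged samples. Young replicate 1 lay within the range of the aged samples, and aged replicate 2 was level with young replicate 2. The log2 fold change was 0.18 (SE 0.13) with an edgeR adjusted p of 0.430, and −0.063 with offsets fitted on mean abundance. It was 0.093 without young replicate 3 and 0.32 without young replicate 1, and in the latter case both Fdft1 and Insig1 had smaller values.

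The other 8 Srebf2 regions split largely by their level. An intronic region, chr15:82183376-82185239, had 52.0, 58.3 and 61.0 CPM in young and 62.9, 60.2, 67.9 and 68.2 CPM in aged samples. Aged replicate 2 was below young replicate 3, and the log2 fold change was 0.18 with an edgeR adjusted p of 0.315. Values below 0 were found at the weaker regions, 1 of them an intronic region above the median level of all regions, chr15:82165449-82167340, with −0.40 at 15.5 CPM in young and 11.6 CPM in aged liver. A region over a coding exon, chr15:82199549-82200125, had the largest absolute log2 fold change of the 32 regions, −0.80 (SE 0.29), with an edgeR adjusted p of 0.115. It had 7.96, 7.11 and 4.44 CPM in young and 4.22, 3.53, 5.37 and 2.42 CPM in aged samples, and only aged replicate 3 reached into the young range. At the intronic region chr15:82160484-82160987 every aged sample was below every young one, with 4.91, 3.55 and 3.12 CPM in young and 2.02, 2.35, 1.87 and 2.93 CPM in aged samples. Its log2 fold change was −0.75 with an edgeR adjusted p of 0.138, and its counts were as low as 8 in a sample. The same order held at chr15:82212107-82212766, downstream of Srebf2 over the start of Shisa8, where the log2 fold change was −0.72 with an edgeR adjusted p of 0.124.

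**Figure D1:**
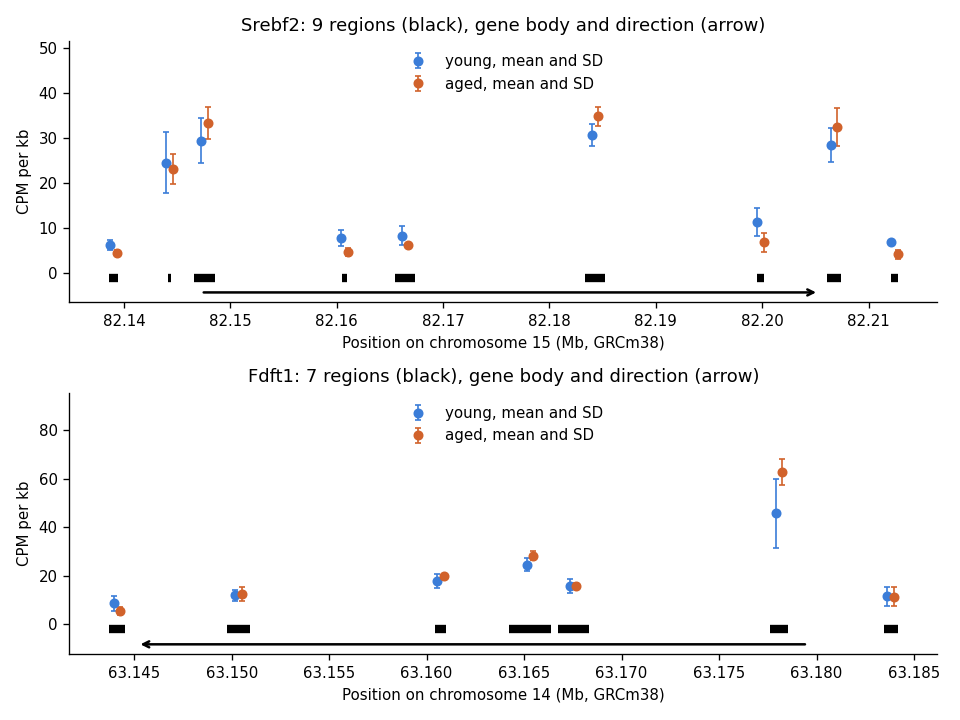
Mean CPM per kb with SD of each region at Srebf2 (9 regions) and Fdft1 (7 regions) in young (n = 3) and aged (n = 4) liver, plotted along the chromosome in Mb, with regions as black blocks and the gene as an arrow in the direction of transcription. At Srebf2 the aged mean is above the young mean at 3 of the 9 regions, those of its promoter, an intron and its 3′ side, and below it at the other 6.

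Insig1 encodes an endoplasmic reticulum membrane protein that retains SCAP and the SREBP precursors, and is itself a known SREBP-2 target. Its promoter region, chr5:28070396-28072710, also covers a start of the noncoding gene Gm26608. It had 117, 122 and 94.2 CPM in young and 128, 129.6, 140.1 and 132 CPM in aged samples. All aged samples were above all young samples, and young replicate 3 was the lowest. For the promoter region the log2 fold change was 0.25 (SE 0.12) with an edgeR adjusted p of 0.203, 0.16 without young replicate 3, and −0.097 with offsets fitted on mean abundance. The region over the 3′ UTR of Insig1, chr5:28078566-28080460, had 40.3, 30.8 and 20.6 CPM in young and 24.9, 80.4, 25.9 and 25.5 CPM in aged samples. Aged replicate 2 stood far above all other samples, and the other 3 aged samples lay inside the young range. The log2 fold change of 0.32 (SE 0.36, edgeR adjusted p 0.619) therefore rests on 1 library.

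**Figure D2:**
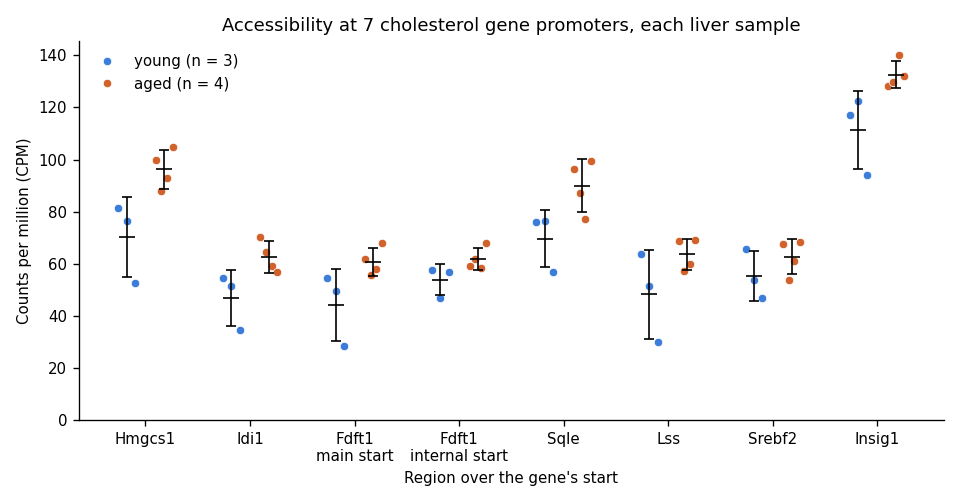
CPM in each young (blue, n = 3) and aged (orange, n = 4) liver sample at the region over the start of each gene, with bars for the mean and SD, and with both start regions of Fdft1. The groups do not overlap at Hmgcs1, Idi1, both Fdft1 regions, Sqle and Insig1, and they overlap at Lss and Srebf2.

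Young replicate 3 had the lowest log2 CPM of all samples at 6 of the 7 promoter regions and young replicate 2 at the other, while aged replicate 4 had the highest at 5. Measured against the mean of young replicates 1 and 2, the median of the 7 promoter regions was −0.42 in young replicate 3 on the log2 scale, and 0.26, 0.15, 0.16 and 0.27 in aged replicates 1 to 4. The same measure over promoter regions of protein-coding genes was −0.059 in young replicate 3, and 0.14, 0.022, 0.14 and 0.15 in the aged samples. Related genes described below shared this in part, with medians in young replicate 3 of −0.25 at 15 other synthesis enzymes, −0.16 at 7 other regulators, −0.073 at 12 uptake, transport and storage genes and −0.25 at 11 fatty acid synthesis genes. Young replicate 3 was the lowest young sample at 11 of the 15, 5 of the 7, 6 of the 12 and 7 of the 11, beside 48.5% of promoter regions of protein-coding genes. Without this library the median log2 fold change of the 7 promoter regions was 0.26, and all 7 values were above 0.

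Per kb of region, Hmgcs1 had the most accessible promoter in both ages, at 50.5 ± 11.0 CPM per kb for the young samples (SD, n = 3) and 69.3 ± 5.36 CPM per kb for the aged ones (SD, n = 4). In young liver it was followed by Insig1 at 48.1, Sqle at 47.5, Idi1 at 42.2, Lss at 39.3, Srebf2 at 29.4 and Fdft1, by its stronger region, at 24.6 CPM per kb. In young liver only the step from Sqle to Idi1 was present in all 3 samples, and it was smaller than the SD of either gene. In aged liver the order was Hmgcs1, Sqle at 61.3, Insig1 at 57.3, Idi1 at 56.4, Lss at 51.8, Srebf2 at 33.3 and Fdft1 at 28.3 CPM per kb. The steps from Hmgcs1 to Sqle, from Lss to Srebf2 and from Srebf2 to Fdft1 were present in all 4 aged samples and were larger than the SD of either gene, and the neighbours from Sqle to Lss were not separated. Fdft1 is last only by its internal start, since its main start had 45.7 CPM per kb in young and 62.7 CPM per kb in aged liver.

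The share of a gene's accessible signal that fell in its promoter region differed widely among the 7 genes. Besides Idi1 with its single region, it was 87.8% at Lss, 74.1% at Sqle, 69.5% at Insig1, 61.7% at Hmgcs1, 33.2% at Fdft1 and 30.1% at Srebf2, taken from CPM averaged over the 7 samples. At Lss the young share was 82.8 ± 2.62% (SD, n = 3) and the aged share 90.7 ± 4.33% (SD, n = 4), and at Fdft1 these were 33.3 ± 4.07% and 33.2 ± 1.79%. Summed over all regions of a gene, CPM were higher in every aged than in every young sample at Hmgcs1 and Idi1, and the groups overlapped at the other 5 genes. At Srebf2 the young sum was 193 ± 6.78 CPM (SD, n = 3) and the aged sum 201 ± 15.0 CPM (SD, n = 4), a difference within the spread between samples.

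Change and level went together among the regions of these genes, as they did over all regions. Of the 12 regions below the median level of all regions, 1 had a positive value, and their median was −0.53. Of the 20 above the median level, 17 were above 0, with a median of 0.19. Over all regions divided by level into 10 classes of equal size, the median was −0.42 in the lowest class and 0.28 in the highest, with levels taken as mean log2 CPM per region and not per kb. All 7 promoter regions were in the highest class, where 93.8% of regions were above 0 and 44.7% had every aged sample above every young sample. Against the median of that class, 4 of the 7 promoter regions were higher, those of Hmgcs1, Idi1, Lss and Sqle, and 3 were lower, those of Insig1, Fdft1 and Srebf2. With offsets fitted on mean abundance, which remove the relation of change to level, the 7 promoter regions had a median of 0.082. With total counts in place of TMM the median of all regions shifted by −0.12, and the 7 promoter regions had a median of 0.25 and were all above 0.

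**Figure D3:**
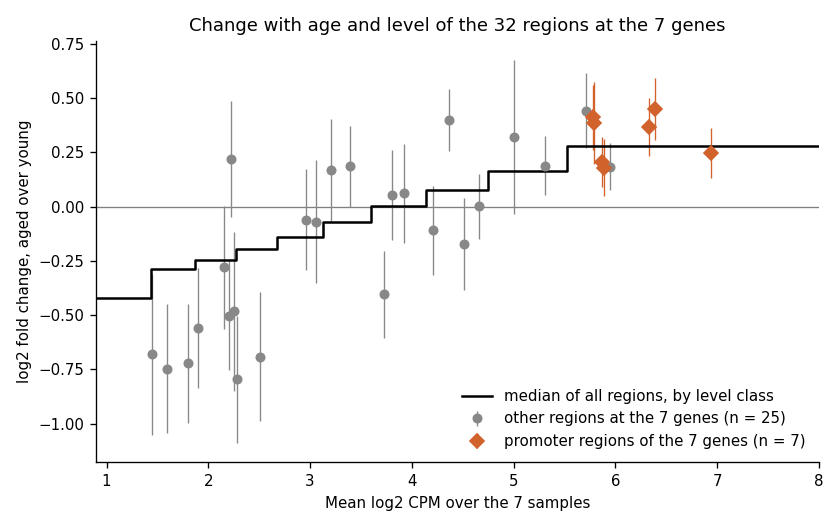
Log2 fold change of aged over young liver (± SE) against the mean log2 CPM over 7 samples for the promoter regions of the 7 genes (orange, n = 7) and their other regions (grey, n = 25), with the median over all regions in each of 10 level classes as a black line. The promoter regions sit at the right between 0.18 and 0.45, and with offsets fitted on mean abundance those of Insig1, Srebf2 and Fdft1 were below 0, while the weak regions at the left lie mostly below 0.

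GC content was similar at the 7 promoter regions, and the frequency of CpG was not. The GC content ran from 53.3% to 61.6% with a median of 59.7%, beside a median of 58.7% in promoter regions of protein-coding genes and 49.4% in all regions. The ratio of observed to expected CpG was 0.81 at Sqle, 0.83 at Srebf2 and between 0.58 and 0.62 at Hmgcs1, Insig1, Idi1 and Lss. At the internal start of Fdft1 it was 0.30, and at its main start 0.83.

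RefSeq promoter windows of 250 bases before to 50 after a start on GRCm38.p6 were given for Hmgcs1, Idi1, Lss, Srebf2 and Insig1, which is 5 of the 7 genes, and not for Sqle and Fdft1. The promoter region covered the window at all 5. Motifs were searched on both strands, and a match is only a match of letters. The sterol element TCACNCCAC occurred in the Hmgcs1 window, beside 1.24% of 32851 windows of all genes. CCAAT, the letters of the NF-Y box, occurred in all 5 windows beside 37.4% of all, 4 times at Hmgcs1, 2 times at Idi1 and once in each of the others. GGGCGG, the letters of the Sp1 box, occurred in all 5 beside 35.7% of all, from 1 match at Idi1 to 5 at Srebf2. The E-box CACGTG occurred at Insig1, beside 7.15% of all windows. The shorter sterol core TCACCCCA, chosen after the sequences were seen and part of the Hmgcs1 match above, occurred at Hmgcs1 and Srebf2, beside 1.56% of all windows.

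The bases before the first annotated start are shown for 4 of these windows, since the promoter regions cover them and they hold matches. They run 5′ to 3′ on the plus strand of GRCm38.p6 as given by RefSeq, with every match in them in capitals on either strand. They are chr13:119690101-119690350 for Hmgcs1, chr15:82147019-82147180 for Srebf2, chr5:28071162-28071362 for Insig1 and chr10:76531355-76531587 for Lss. Further CCAAT and GGGCGG matches of the Hmgcs1 window and GGGCGG matches of the Srebf2 window lie outside these stretches. None of the Idi1 matches lies before its first annotated start, and that stretch is not shown. The Hmgcs1 stretch holds 3 CCAAT matches on the other strand (ATTGG) and the sterol element, the Insig1 stretch the E-box, and the Srebf2 stretch the shorter sterol core.
Hmgcs1: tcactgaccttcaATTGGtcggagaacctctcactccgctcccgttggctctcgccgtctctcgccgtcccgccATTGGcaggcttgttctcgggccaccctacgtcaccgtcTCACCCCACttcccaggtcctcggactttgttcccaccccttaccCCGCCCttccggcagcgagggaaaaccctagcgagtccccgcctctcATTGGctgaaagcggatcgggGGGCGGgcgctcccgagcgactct
Srebf2: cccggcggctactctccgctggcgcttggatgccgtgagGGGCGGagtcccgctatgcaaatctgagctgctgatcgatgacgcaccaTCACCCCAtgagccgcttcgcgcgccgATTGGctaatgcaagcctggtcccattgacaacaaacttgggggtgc
Insig1: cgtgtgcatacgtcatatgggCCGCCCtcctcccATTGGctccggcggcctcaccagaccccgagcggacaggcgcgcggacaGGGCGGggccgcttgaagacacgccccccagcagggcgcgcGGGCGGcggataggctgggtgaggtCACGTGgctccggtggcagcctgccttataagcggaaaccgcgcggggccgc
Lss: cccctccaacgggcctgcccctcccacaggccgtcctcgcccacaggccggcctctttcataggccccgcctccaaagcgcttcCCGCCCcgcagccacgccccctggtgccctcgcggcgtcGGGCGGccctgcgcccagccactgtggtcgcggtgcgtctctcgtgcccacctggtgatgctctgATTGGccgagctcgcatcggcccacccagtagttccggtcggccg

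Other genes of the pathway were described from lists by role, and all 34 had a promoter region, with 1 region shared by Abcg5 and Abcg8 and counted for both. A positive log2 fold change was found at 31, and the median of the 34 was 0.31 beside 0.13 over promoter regions of protein-coding genes. edgeR called 3 higher and 0 lower in aged liver. At an unadjusted p under 0.05 there were 21 higher and 0 lower, DESeq2 called 11 higher and 0 lower, and limma voom 8 higher and 0 lower, and the shares of all protein-coding promoter regions for these tests are those given above. The count of 3 fell to 0 without aged replicate 1, young replicate 1 or young replicate 2 and to 1 without aged replicate 3, and rose to 5 without aged replicate 2. Offsets fitted on mean abundance left 0 calls and a median of 0.084, and 25 of the 34 were above 0.

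The 3 called genes encode synthesis enzymes. Pmvk, the phosphomevalonate kinase, had 24.99, 21.9 and 24.0 CPM in young and 35.1, 39.6, 29.9 and 35.0 CPM in aged samples. Fdps, which makes the farnesyl diphosphate that squalene synthase joins, had 62.8, 59.6 and 60.5 CPM in young and 88.4, 94.7, 83.8 and 81.5 CPM in aged samples. Ebp, a sterol isomerase late in the pathway, had 34.8, 34.7 and 32.2 CPM in young and 47.0, 49.2, 46.5 and 47.9 CPM in aged samples. At all 3 the young samples were close together and every aged sample was above them. The log2 fold changes were 0.57 at Pmvk, 0.51 at Fdps and 0.49 at Ebp, with edgeR adjusted p-values of 0.0269, 0.0174 and 0.0219. With an aged pair summed, Pmvk and Fdps were called for all 6 pairs, at adjusted p-values up to 0.0480 and 0.0462, and Ebp for 5 of them, with 0.0541 at most. With total counts Pmvk (0.0635) and Ebp (0.0527) were not called, and Pmvk was not called without aged replicate 2 (0.0501). Without aged replicate 3 Fdps (0.0527) and Ebp (0.0624) were not called, and without aged replicate 1 or young replicate 1 or 2 none of the 3 was called. Offsets fitted on mean abundance also left none of the 3 called, with log2 fold changes of 0.44 at Pmvk, 0.24 at Fdps and 0.30 at Ebp. At these 3 genes young replicate 3 was not far below the other young samples, unlike at Hmgcs1, Idi1 and Lss and at another synthesis enzyme, Msmo1 (62.8, 65.8 and 38.0 CPM in young samples).

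Log2 fold changes were positive at all 15 listed synthesis enzymes, where the median of 0.37 equalled that of the 7 genes to 2 decimals, and the smallest was 0.16 at Mvk. With offsets fitted on mean abundance 12 of the 15 stayed above 0. Every aged sample was above every young sample at 11 of the 15, beside 24% of the promoter regions of protein-coding genes and 44.7% of regions in the highest level class. Not all of the 15 are in that class, since some, among them Pmvk, Ebp and Mvk, lie below its lower limit, a mean log2 CPM of 5.53. Among 7 further regulators the median was 0.25 and 7 were above 0. Of these regulators 0 were called by edgeR, beside 5.02% of promoter regions of protein-coding genes called higher. At an unadjusted p under 0.05 there were 3, all higher, beside 27.3%. DESeq2 and limma voom called 1 each, both higher, beside 11.9% and 9.2%. The highest were Nr1h3, the sterol receptor LXR alpha, at 0.37 and Insig2, the second INSIG gene, at 0.35, and the lowest were Scap at 0.12 and the protease gene Mbtps2 at 0.092. Under total counts 6 of the 7 regulators were above 0 and with offsets fitted on mean abundance 5.

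Uptake, transport and storage genes were the most mixed of the lists, with 9 of 12 above 0 and a median of 0.28, and 8 of 12 above 0 with total counts or with offsets fitted on mean abundance. edgeR called 0 of them, beside 5.02% of promoter regions of protein-coding genes called higher. An unadjusted p under 0.05 was found at 7, all higher, beside 27.3%. DESeq2 called 3 and limma voom 1, all higher, beside 11.9% and 9.2%. The highest were Lrp1, an endocytic receptor for lipoprotein remnants, at 0.54 and Scarb1, the HDL receptor, at 0.43, with edgeR adjusted p-values of 0.0697 and 0.0757. The lowest were Soat1, which esterifies cholesterol, at −0.22 and Mylip, a ubiquitin ligase that directs lipoprotein receptors to degradation, at −0.17. Both of these had weak promoter regions, with 5.19 and 13.4 CPM in young and 4.49 and 12.0 CPM in aged liver.

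As a comparison, 11 genes of fatty acid synthesis, which the related factor SREBP-1c drives, had a median of 0.36, and all 11 were above 0, 10 of them with offsets fitted on mean abundance. At an unadjusted p under 0.05 there were 7, all higher, beside 27.3% of promoter regions of protein-coding genes. DESeq2 called 6 and limma voom 4, all higher, beside 11.9% and 9.2%. edgeR called 3 higher, beside 5.02% of promoter regions of protein-coding genes, namely Scd1, the stearoyl-CoA desaturase, at 1.08, Acly, which supplies cytosolic acetyl-CoA to both pathways, at 0.58, and Acaca, the acetyl-CoA carboxylase, at 0.42. Their edgeR adjusted p-values were 0.0143, 0.0130 and 0.0493. Scd1 and Acly were called with each of the 6 aged pairs summed and Acaca with 1 of them. Acaca was not called with any library left out, Scd1 and Acly were not called without young replicate 1 (0.0600 and 0.0577), and with offsets fitted on mean abundance 0 of the 3 were called, at 0.86 for Scd1, 0.24 for Acly and 0.078 for Acaca. The largest value at a promoter of the 7 cholesterol genes, 0.45 at Hmgcs1, was below that of Scd1 and Acly.

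**Figure D4:**
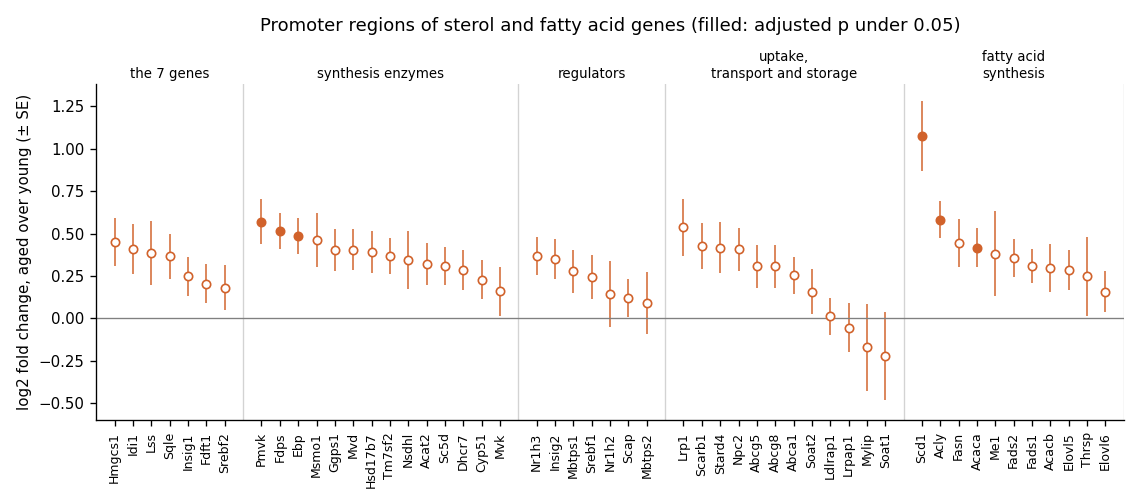
Log2 fold change of aged over young liver (± SE) at the promoter region of the 7 genes, 33 of the 34 other genes of cholesterol metabolism by role and 11 genes of fatty acid synthesis, with filled points for an edgeR adjusted p under 0.05. The 6 filled points are Pmvk, Fdps, Ebp, Scd1, Acly and Acaca, and 3 genes lie below 0, while with offsets fitted on mean abundance 9 of the 34 other cholesterol genes and 3 of the 7 were not above 0.

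The genes outside these lists whose promoter log2 CPM followed the mean of the 7 promoter regions most closely over the 7 samples were Abcb9 (Pearson r 0.997), Hint3 (0.995) and Tpst2 (0.995). Their log2 fold changes were 0.30, 0.41 and 0.38. Positive values came with this choice, since the mean of the 7 promoter regions was higher in every aged than in every young sample. Of 12966 genes compared, 10.2% had a Pearson r above 0.9, and the measure is a description over 7 samples that share library and depth.

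Promoter regions of marker genes were used to check the tissue. All 5 hepatocyte markers (Alb, Apoa2, Ttr, Cps1 and Ahsg) had one, led by Apoa2 with 78.0 CPM in young and 97.6 CPM in aged liver. Their summed level was 273, 331 and 305 CPM in young and 373, 375, 411 and 387 CPM in aged samples, so every aged sample was above every young sample, and Ahsg was called higher with a log2 fold change of 0.57 and an edgeR adjusted p of 0.0204. This call held with 5 of the 6 aged pairs summed, but not without young replicate 1 or 2 or aged replicate 1 or 3, nor with offsets fitted on mean abundance, where the value was 0.28. The promoter regions of Hmgcs1, Idi1, Sqle, Insig1 and Fdft1 also had every aged sample above every young sample, and the part of hepatocyte share in those values was not tested.

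Among markers of other cells edgeR called 0. Among 5 macrophage markers 1 had a promoter region, Clec4f with 2.22, 2.65 and 2.30 CPM in young and 1.41, 0.588, 2.80 and 1.53 CPM in aged samples, and Adgre1, Csf1r, Cd68 and Marco had none. None of the 5 lymphocyte markers and none of the 4 markers of tissues other than liver had a promoter region. The 3 of 5 endothelial markers with a region, led by Stab2, summed to 62.0, 57.2 and 57.7 CPM in young and 46.0, 44.5, 61.2 and 75.1 CPM in aged samples. The 3 of 5 stellate markers, led by Reln, summed to 29.1, 26.7 and 26.6 CPM in young and 23.5, 16.1, 16.3 and 19.1 CPM in aged samples. The 2 of 4 cholangiocyte markers, led by Sox9, summed to 48.5, 41.7 and 49.5 CPM in young and 43.0, 36.7, 37.6 and 54.3 CPM in aged samples. The endothelial and cholangiocyte sums rest mostly on Stab2 and Sox9, at 0.051 and −0.053, while the weaker Kdr, Cdh5 and Epcam had −0.35, −0.44 and −0.77. Only the stellate sum was lower in every aged than in every young sample, and its part in the values at the 7 genes was not tested.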

How the data were processed

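The authors deposited raw counts of reads in 55680 consensus regions for each of 7 libraries, without normalization. Per the submitters' processing notes and the paper's methods, reads were trimmed with cutadapt 1.13, aligned to GRCm38 with Bowtie2 2.4.1, filtered for duplicates and mitochondrial reads, and counted with featureCounts in MACS2 2.2.7 peaks present in at least 2 libraries.

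Counts were analysed with edgeR 4.0.16 in R 4.3.3 (TMM, quasi-likelihood test, a model of age alone, all regions kept) and summarised in Python 3.11.15. Log2 CPM used a prior count of 2. The fit was tested on simulated data, where false calls were more frequent than the threshold states, so calls close to it are less certain, and the limits of that test were widened after a draw had missed them. Libraries of the same age differed by more than sampling noise (chi-square per degree of freedom 2.38 to 6.06 over 9 pairs). Alternatives were DESeq2 1.42.0, limma 3.58.1 (voom), total counts, loess offsets (span 0.3) on mean abundance or GC content, count filters, thinning, left-out samples, summed aged pairs, a replicate block, a threshold of 0.01, and other windows.

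The 7 genes were described by their promoter region and the other region of largest absolute change, with further regions at some of them. Named besides were every called gene of each list or else its 2 highest and 2 lowest, and the 3 most alike genes. Outside this rule, Mvk was named as the lowest synthesis enzyme and Msmo1 for its low young replicate 3, and neither was called. The members and lists were chosen with earlier results of these data known. One listed synthesis enzyme counts in the totals and is not reported here on its own. RNA-seq, ChIP-seq and MNase-seq data were not analysed here.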

Additional observations from a re-analysis of the deposited data

Results flagged for a closer look

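Among the 32 regions at the 7 genes, 2 had an aged sample far from the other 3 aged samples, and chance alone marks about 1 in 20 groups in this way. At the Insig1 3′ UTR region chr5:28078566-28080460, aged replicate 2 had a log2 CPM of 6.33, against 4.65 to 4.71 in the other aged samples and 4.37 to 5.34 in the young samples. At the region downstream of Srebf2 over the start of Shisa8, chr15:82212107-82212766, aged replicate 4 had a log2 CPM of 1.96, against 1.31 to 1.35 in the other aged samples and 2.16 to 2.28 in the young samples.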

How the results depend on the processing

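All 7 promoter regions stayed above 0 under 21 of 22 alternative fits. The exception was offsets fitted on mean abundance, with −0.097 at Insig1, −0.063 at Srebf2, −0.037 at Fdft1, a median of 0.082 over the 7, 0 pathway promoter regions called higher (3 in the main test) and 697 regions called (3198). Regions of the 7 genes called higher (0) became 1 with DESeq2 and 2 with offsets on GC content. Pathway promoter regions called higher became 11 with DESeq2, 8 with limma voom, 17 with offsets on GC content, 9 with aged replicates 2 and 4 summed, 2 with aged replicates 1 and 3 summed (3 with each other aged pair), 1 with total counts and 0 at a threshold of 0.01, and ran from 0 to 5 with 1 library left out. All regions called became 5627 with offsets on GC content, 1327 with at least 10 counts in every sample, 1934 with thinning, 962 with aged replicates 1 and 3 summed, 1806 with aged replicates 2 and 3 summed and 173 at a threshold of 0.01, and ran from 188 to 4230 with 1 library left out. The median over the regions of the 7 genes (0.057) became −0.057 with total counts, −0.038 with offsets on mean abundance, −0.028 with aged replicates 1 and 2 summed and 0.18 with the gene body alone or with 2 kb on either side, and ran from −0.077 to 0.19 with 1 library left out. The cause was not tested, except that the stricter threshold calls fewer regions by construction. The filter of at least 10 counts left 47355 regions to test, and why fewer of them were called was not tested. With Fdft1 taken at its main start, a choice made after seeing the data, the median of the 7 promoter regions was 0.39.

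The fit with the replicate number as a block left out aged replicate 4, whose number no young sample has. It called 1 region of the 7 genes, the Idi1 promoter region (0.48, edgeR adjusted p 0.0398), and 4152 regions in all. Without aged replicate 4 but with no block, 0 regions of the 7 genes and 4230 regions in all were called. In that fit the Idi1 promoter region had 0.465 with an edgeR adjusted p of 0.0716. Same-numbered young and aged samples had correlations of −0.12, 0.056 and 0.030 in their deviations from the group means. Young replicate 2 correlated best with aged replicate 2, young replicate 1 with aged replicate 4 (0.23) and young replicate 3 with aged replicate 1 (0.096). These correlations cannot decide whether same-numbered samples share more than a number, since deviations within such small groups depend on each other.

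The SEs were larger at the weak regions than at the 7 promoter regions, and the part of depth in this was not tested. Counts at the 32 regions ran from 5 to 3241 in a sample. The 12 below the median level had SEs of 0.23 to 0.37 on the log2 scale, against 0.12 to 0.19 at the 7 promoter regions. A stronger region outside the promoters, over the 3′ UTR of Insig1, had an SE of 0.36.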
